A study of Mus musculus with 2 samples.

Results

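Strict sebocytes were the skin cells in which at least 4 of 7 sebaceous gland genes were detected: Far2, Awat2, Cidea, Acsbg1, Elovl3, Soat1 and Pparg. Detected means at least 1 unique molecular identifier (UMI), the tag that counts single captured RNA molecules. Cells were retained from 500 genes and 1000 UMIs upward if mitochondrial UMIs did not exceed 10%, and 244 of 24312 retained cells met the rule. They were 66 of 5932 in the library labelled PBS and 178 of 18380 in the library labelled sitagliptin. Because the members were chosen by their measured counts of the 7 genes, comparisons of these cells with other cells are descriptions.

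The cells came from the skin of C57Bl6 mice of 8 weeks, male and female, profiled by 10x Genomics single-cell RNA sequencing. Mice had received 100 ng of sitagliptin, an inhibitor of the protease DPP4, in 100 µl of phosphate-buffered saline (PBS) by intradermal injection, or PBS alone; the labels name 48 h with the skin processing, without a starting event. There was 1 library per treatment, with no replicates, and the sources used here do not give the number of animals behind each, so no test between treatments was possible. Intervals printed here are 95% intervals of counting error, and they hold no variation between animals, preparations or cells. A letter in each library's file name is the initial of the other treatment, so libraries are named by their labels, and an exchange of labels would turn each direction.

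Sebocytes make the lipids of the sebaceous gland, which opens into the upper hair follicle. Keratin 5- and keratin 14-positive progenitors at the rim of the gland divide, move inward, accumulate lipid droplets and finally burst, releasing their content as sebum (holocrine secretion). Sebum is rich in wax esters, triglycerides and sterol esters, and the nuclear receptor PPARγ, encoded by Pparg, is a main regulator of sebocyte maturation.

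The 2 libraries differed in depth. The median retained cell had 6902.5 UMIs under the PBS label and 2197 UMIs under the sitagliptin label, and the median sebocyte had 13048 UMIs (1203 to 39751) and 3282.5 UMIs (1200 to 30367). Sebocyte levels therefore rest on 1117975 and 995189 UMIs in all, and levels below are UMIs summed over the cells per 1000000 UMIs of the same cells (CPM). The libraries shared 75 barcodes, and 1 sebocyte of the sitagliptin-labelled library carried such a barcode.

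Cells with more rule genes carried more Scd1, a lipid gene that the rule did not name. Scd1, the stearoyl-CoA desaturase that makes monounsaturated fatty acids, took a median of 0.019% of UMIs in the 56 PBS-labelled cells with 3 rule genes, just outside the rule. It took 0.086% in the 18 cells with 4 rule genes, just inside, and 1.21% in the 16 cells with all 7. In the sitagliptin-labelled library the medians were 0.171% in 188 cells with 3 rule genes, 0.345% in 92 cells with 4 and 1.49% in 13 cells with 7. The median of Scd1 was thus higher at each step shown, and the limit of 4 fell within a slope in both libraries. Depth differed along the steps as well. Cells with 3, 4 and 7 rule genes had medians of 13843, 14547 and 19164.5 UMIs under the PBS label. Under the sitagliptin label the medians were 2124, 2550 and 11066 UMIs. In the sitagliptin-labelled library, 92 of the 178 members sat on the limit itself.

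The share of sebocytes with each rule gene is what the rule used and is given as a description; myeloid cells, chosen by their own markers and limited to under 4 rule genes, are set beside them. Far2, the fatty acyl-CoA reductase that makes the fatty alcohols of wax esters, was detected in 97.0% and 93.8% of sebocytes, in the PBS- and sitagliptin-labelled library in that order. Myeloid cells, which should lack Far2, had a UMI of it in 2.65% of 1433 cells (median 5191 UMIs) and 2.94% of 68 cells (median 3761.5 UMIs). Soat1, which esterifies cholesterol, was in 84.8% and 82.6% of sebocytes and in 35.5% and 26.5% of myeloid cells. Acsbg1, an acyl-CoA synthetase, was in 95.5% and 76.4% of sebocytes and in 27.8% and 21.3% of cells with 0 or 1 rule gene, a share that the rule limits too. Pparg was in 54.5% and 27.5% of sebocytes and in 3.63% and 1.47% of myeloid cells. Awat2, an acyltransferase of wax ester synthesis, was in 45.5% and 33.7%, against 12 of 1433 (0.837%) and 0 of 68 myeloid cells, which allows up to 5.28% by the exact interval.

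Scd1 and Mgst1, markers outside the rule, were detected in most members but at very unequal levels. Scd1 was detected in all 244 sebocytes, and Mgst1, a membrane-bound glutathione transferase, in 63 of 66 and 159 of 178. Detection was common elsewhere too. Scd1 had a UMI in 32.8% and 51.5% of myeloid cells and in 44.4% and 37.1% of cells with 0 or 1 rule gene. For Mgst1 it was 16.8% and 19.1%, and 22.6% and 14.5%. The share of a sebocyte's UMIs in Scd1 ran from 0.005% through a median of 0.187% to 2.99% in the PBS-labelled library. It ran from 0.008% through 0.457% to 3.77% in the sitagliptin-labelled library. At a limit of 0.5%, chosen after the values were seen, 28 of 66 (42.4%) and 85 of 178 (47.8%) sebocytes were Scd1-rich. The limit cuts a range: 3 and 29 cells lay between 0.4% and 0.6%. The Scd1-rich cells spent 0.638% and 0.499% of their UMIs on the 7 rule genes, and the Scd1-poor cells 0.059% and 0.264%. The Scd1-poor cells thus met the rule at lower levels of the same genes, which the rule itself used. Their median depth was 18943.5 and 3046 UMIs, against 11363 and 3725 UMIs in the Scd1-rich cells, and detection rises with depth. The sebocyte label is less certain for the Scd1-poor cells.

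**Figure D1:**
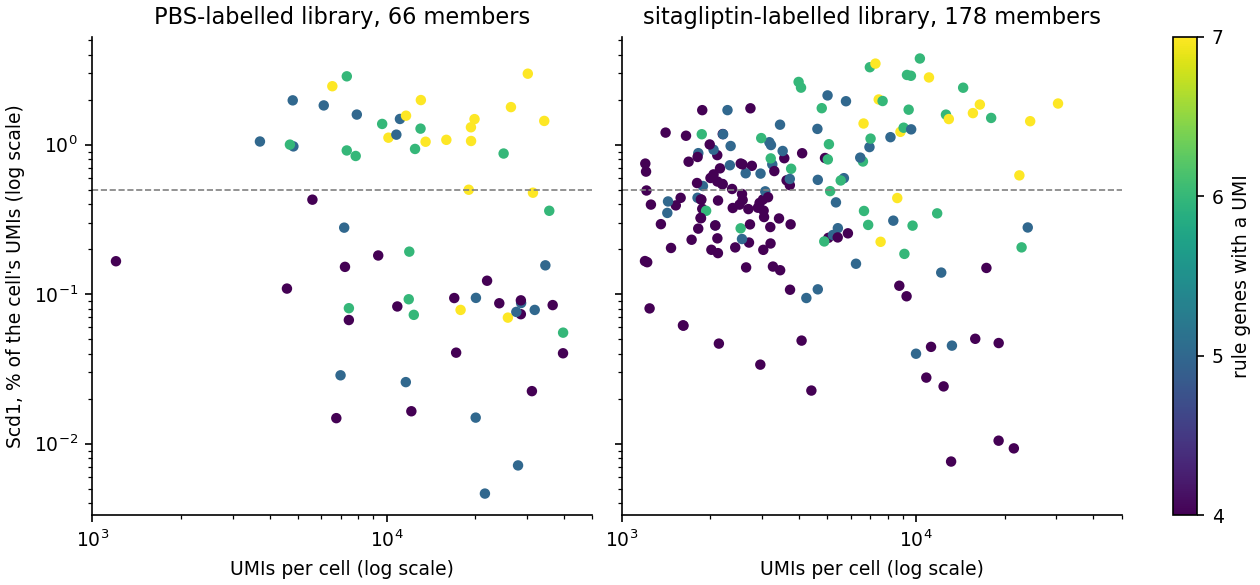
Share of UMIs in Scd1 (percent, log scale) against the UMIs of each strict sebocyte (log scale), 1 point per cell, for the PBS-labelled (66 cells) and the sitagliptin-labelled library (178 cells). The dashed line is the 0.5% limit of Scd1-rich cells, with 28 and 85 cells above it.

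Across single sebocytes the share of Scd1 rose with that of the 7 rule genes, which chose the cells, and with that of Fabp5. Spearman's rho between the shares of Scd1 and of the 7 rule genes was 0.82 over 66 PBS-labelled and 0.77 over 178 sitagliptin-labelled cells. For Fabp5, a fatty acid binding protein abundant in epidermis and sebocytes, rho was 0.81 and 0.75. For Krt79, a keratin of the follicle's upper part and the gland duct, it was 0.68 and 0.31. Against the share of Krt5 and Krt14, rho of Scd1 was -0.40 and -0.28, and against that of Krt1 and Krt10 it was -0.14 and -0.15. Against the cells' UMIs, rho of Scd1 was -0.28 and 0.07. Cells of a library share its depth and free RNA, so these are descriptions without a test.

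Markers of myeloid cells, fibroblasts and red blood cells were higher in the PBS-labelled than in the sitagliptin-labelled sebocytes. The 8 myeloid markers summed to 824 CPM in its sebocytes (1738 CPM in its cells with 0 or 1 rule gene), and 26 of 66 members held at least 2 of them. They summed to 7.03 CPM in the sitagliptin-labelled sebocytes, where C1qa, C1qb, C1qc, Lyz2 and Ptprc were at 0 and no member held 2. The adipocyte list, which shares lipid biology with sebocytes, summed to 10.7 and 15.1 CPM, and its defining genes Adipoq, Plin1 and Lep were at 0 in both libraries. Fibroblast markers summed to 136 and 13.1 CPM. In 1 PBS-labelled sebocyte of 4583 UMIs, 61.8% of UMIs were haemoglobin. Suprabasal keratinocyte markers summed to 14335 and 8562 CPM, against 18732 and 28906 CPM in the cells with 0 or 1 rule gene. In the median sebocyte these markers took 0.179% of UMIs under the PBS label and 1.16% under the sitagliptin label. The highest cell had 6.67% and 3.75%. Sums and medians of the suprabasal markers thus ran in opposite directions between the libraries.

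The 20 leading genes of the sebocytes had at least 100 CPM in members and the highest ratio over cells with 0 or 1 rule gene, taking the smaller ratio of the 2 libraries. The 19 reported here were Far2, Elovl3, Cidea, Fa2h, Tmem45b, Ces1d, Acoxl, Cyp2g1, Clstn3, Gm13178, Serpina3j, Acacb, Cers4, Reep6, Scd3, Igfbp2, Soat1, Scd1 and Tmem56. Of these, Far2, Elovl3, Cidea and Soat1 belonged to the rule. Among genes with at least 100 CPM in members, 15.6% (237 of 1520) under the PBS label and 19.6% (306 of 1561) under the sitagliptin label were at least 2-fold above those cells.

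Far2 (chr6:148047259-148182758, mm10, GENCODE vM21) was at 876 and 1271 CPM in sebocytes and at 1.60 and 6.28 CPM in cells with 0 or 1 rule gene. Fa2h, the fatty acid 2-hydroxylase of sphingolipid synthesis, was at 848 and 1421 CPM against 2.66 and 8.57 CPM. Cers4, a ceramide synthase, was at 1384 and 2395 CPM against 15.1 and 30.1 CPM. All 3 stood far above the other cells in either library. Acacb, the acetyl-CoA carboxylase of the mitochondrial membrane, was at 179 and 298 CPM against 1.93 and 2.57 CPM. Igfbp2, which binds insulin-like growth factors, was at 266 and 208 CPM against 2.78 and 3.005 CPM, and was the single one of these 19 with the lower level in the sitagliptin-labelled library.

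**Figure D2:**
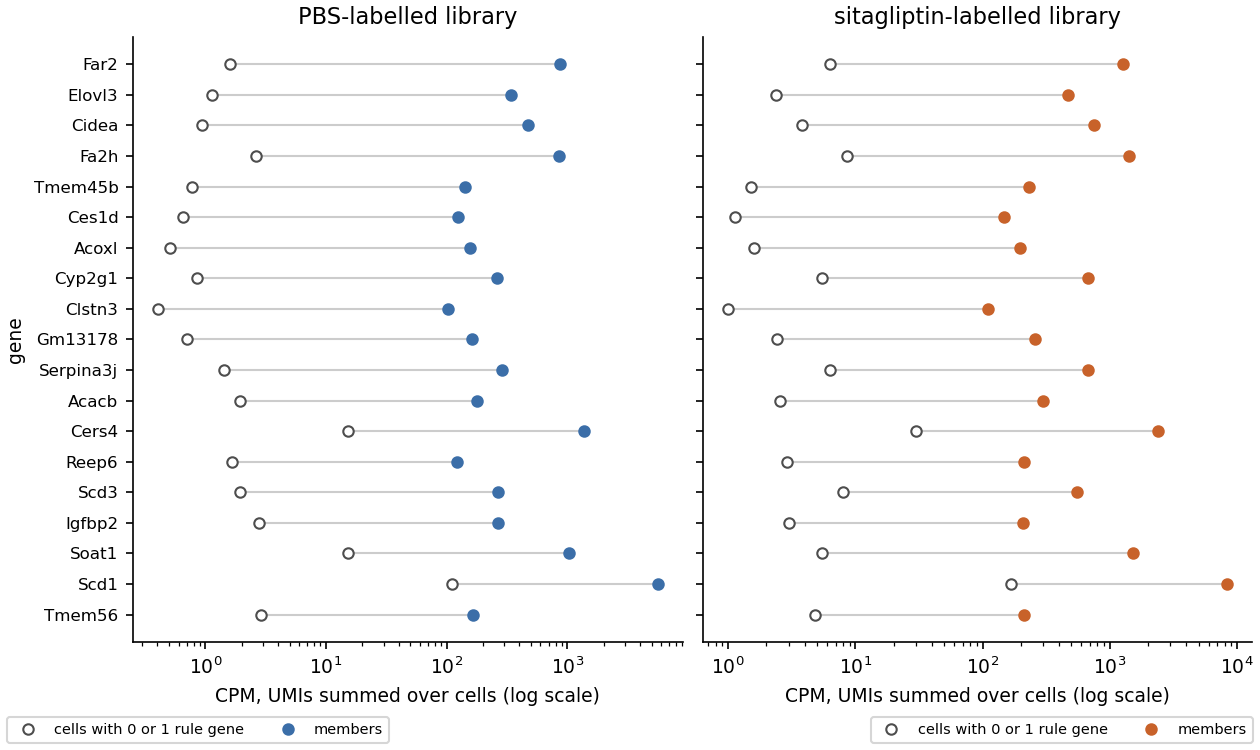
Levels (CPM of summed UMIs, log scale) of 19 leading genes in strict sebocytes and in cells with 0 or 1 rule gene, for both libraries. Sebocytes lie above the other cells for every gene shown, a pattern set by how the genes were chosen.

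RefSeq (GRCm38.p6) entries of 250 bases before to 50 bases after the start were found for 9 of the 20 leading genes. Those of 3 are shown. Far2 and Soat1 are in the list of wax and neutral lipid esters used here, and Acacb is in that of fatty acid synthesis. Capitals mark the letters of 4 motifs searched on both strands: the half-site of nuclear receptors as AGGTCA, the box of the TATA-binding protein as TATAAA, the box of the factor NF-Y as CCAAT, and the box of Sp-type factors as GGGCGG. They are Far2 (chr6:148047166-148047465, plus strand), Soat1 (chr1:156474279-156474578, minus strand) and Acacb (chr5:114165268-114165567, plus strand), each read 5′ to 3′ along its gene.
Far2: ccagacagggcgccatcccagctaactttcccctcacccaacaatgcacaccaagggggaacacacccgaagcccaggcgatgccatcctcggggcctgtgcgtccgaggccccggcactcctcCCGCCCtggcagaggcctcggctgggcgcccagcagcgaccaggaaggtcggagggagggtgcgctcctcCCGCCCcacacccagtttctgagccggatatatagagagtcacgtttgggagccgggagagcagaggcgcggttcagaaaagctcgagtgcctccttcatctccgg
Soat1: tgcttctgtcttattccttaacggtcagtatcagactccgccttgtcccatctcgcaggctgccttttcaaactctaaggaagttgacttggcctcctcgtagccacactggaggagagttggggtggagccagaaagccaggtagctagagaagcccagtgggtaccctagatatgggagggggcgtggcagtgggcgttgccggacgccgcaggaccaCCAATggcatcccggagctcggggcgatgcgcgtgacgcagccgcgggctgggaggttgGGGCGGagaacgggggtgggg
Acacb: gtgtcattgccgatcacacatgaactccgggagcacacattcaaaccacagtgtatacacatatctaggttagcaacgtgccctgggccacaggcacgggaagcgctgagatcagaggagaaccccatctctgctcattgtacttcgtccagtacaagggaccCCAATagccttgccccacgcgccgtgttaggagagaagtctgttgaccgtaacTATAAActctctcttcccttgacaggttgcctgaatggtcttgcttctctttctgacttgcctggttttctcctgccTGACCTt
The Far2 window held 2 Sp-type boxes, the Soat1 window an NF-Y box and an Sp-type box, and the Acacb window a half-site, a TATA box and an NF-Y box. AGGTCA occurred in 16.3% of 32851 RefSeq promoter windows, TATAAA in 13.6%, CCAAT in 37.4% and GGGCGG in 35.7%. The 9 leading genes with an entry had 11 windows, of which 1 held AGGTCA, 1 TATAAA, 5 CCAAT and 5 GGGCGG. The PPAR direct repeat, 2 half-sites with 1 base between them, was in 0.040% of windows, and TCACNCCAC, a sterol response motif, in 1.24%; neither was in the windows of the 9 genes. A match is a stretch of letters and not a measured site.

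Members of the enzyme families differed in level. Of the desaturases, Scd1 was at 5623 and 8392 CPM and Scd3 at 265 and 554 CPM in sebocytes, against 110 and 168 CPM and 1.93 and 7.98 CPM in cells with 0 or 1 rule gene. Scd2 was lower in sebocytes (68.9 and 54.3 CPM) than in those cells (112 and 127 CPM), and Scd4 was at 0. Of the 31-base words in the last 500 bases of Scd1, 8.72% occur in another gene, so a part of its reads could be split between copies. The desaturase signal of sebocytes was thus that of Scd1 and Scd3.

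Among the elongases of fatty acids, Elovl6 was at 2598 and 5177 CPM in sebocytes against 64.8 and 109.9 CPM in cells with 0 or 1 rule gene. Elovl4, which makes very long chains, was at 3208 and 4218 CPM against 266 and 441 CPM. Elovl5 was at 233 and 490 CPM against 16.7 and 17.5 CPM. These 3 and the rule gene Elovl3 (343 and 473 CPM) stood above the other cells in both libraries. Elovl7 was at 105 and 140 CPM against 83.4 and 117 CPM, and Elovl1 at 160 and 114 CPM against 195 and 316 CPM. Elovl1, the elongase of saturated very long chains, was thus the measured family member with a lower level in sebocytes.

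The acyltransferases and reductases of ester synthesis were uneven too. Awat1, a wax ester synthase, was at 93.9 and 188 CPM against 0.689 and 1.69 CPM, and Awat2 at 52.8 and 97.5 CPM against 0.405 and 0.596 CPM. Dgat1, which completes triglycerides, was at 98.4 and 140 CPM against 11.4 and 11.5 CPM. Dgat2 was at 175 and 156 CPM, close to the 143 CPM of the other cells in the sitagliptin-labelled library and above the 87.7 CPM of those in the PBS-labelled library. Far1, the paralogue of Far2, was at 54.6 and 64.3 CPM against 45.3 and 29.5 CPM, and Soat2 was at 0 beside 1042 and 1528 CPM of Soat1.

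Of the lipid droplet coats, Plin2 was at 876 and 880 CPM against 60.2 and 27.9 CPM, while Plin1 and Plin5, the coats of fat cells and of oxidative tissue, were at 0. Plin4 was at 8.94 and 18.1 CPM and Plin3 at 49.2 and 67.3 CPM. Cidea, a droplet fusion protein and rule gene, was at 470 and 753 CPM beside 7.16 and 8.04 CPM of Cidec and 0 of Cideb. Mgll, which splits monoglycerides, was at 1680 and 2234 CPM against 48.8 and 43.9 CPM.

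Over whole gene lists, the pathways of lipid synthesis stood above the other cells in both libraries. In the fatty acid list 20 of 25 measured genes were at least 2-fold above cells with 0 or 1 rule gene in both, in cholesterol synthesis 16 of 24, and in peroxisome and oxidation 17 of 20. In the list of wax and neutral lipid esters it was 10 of 17, in lipid droplets 8 of 12, and in PPAR and lipid regulators 10 of 21. Over all 3426 genes with a value it was 10.7%. The lists hold rule genes, which chose the members, while the other cells were limited to 0 or 1 of them. Far2, Awat2, Soat1 and Acsbg1 are in the list of wax and neutral lipid esters. Elovl3 is in the fatty acid list, Cidea in lipid droplets and Pparg in PPAR and lipid regulators. Peroxisomes shorten and modify very long chains: Acox2 was at 34.9 and 64.3 CPM against 0.284 and 0.697 CPM, and Crat at 213 and 343 CPM against 14.98 and 10.3 CPM. In contrast 0 of 20 cell cycle genes and 1 of 19 genes of sebocyte lineage and differentiation were 2-fold above. Of steroid and retinoid genes, Hsd3b6 was at 89.4 and 144 CPM against 0.304 and 0.938 CPM, and Hsd17b2 at 32.2 and 58.3 CPM against 0.385 and 0.799 CPM.

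Scd1-rich and Scd1-poor sebocytes differed in lipid synthesis and in keratinocyte genes. Without Scd1, the fatty acid list summed to 30222 CPM in rich and 4351 CPM in poor cells of the PBS-labelled library. It summed to 32701 and 7443 CPM in the sitagliptin-labelled library, with 1887 and 2574 CPM in the cells with 0 or 1 rule gene. Scd1-poor sebocytes thus lay between the Scd1-rich and the other cells. Cholesterol synthesis summed to 16416 and 2672 CPM, and to 17527 and 3237 CPM. Cell cycle genes went the other way, with 1519 CPM in rich and 3211 CPM in poor PBS-labelled cells, and 1683 and 2694 CPM in the other library. So did basal keratinocyte markers (4326 and 10417 CPM, and 7516 and 11358 CPM).

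The libraries parted at the suprabasal markers. These summed to 3169 CPM in rich and 19990 CPM in poor PBS-labelled sebocytes, but to 8672 and 8456 CPM in the sitagliptin-labelled library. By single cells the picture was another one. The median share of UMIs in Krt10, a gene of the suprabasal list, was 0.039% in rich and 0.045% in poor PBS-labelled cells. In the other library it was 0.329% and 0.409%. The high sum of the PBS-labelled poor cells thus does not describe their median cell. The poor cells of the PBS-labelled library were also deeper (median 18943.5 UMIs) than its rich cells (11363 UMIs), while the other library had 3046 and 3725 UMIs. Whether those deep cells were pairs of cells was not tested.

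**Figure D3:**
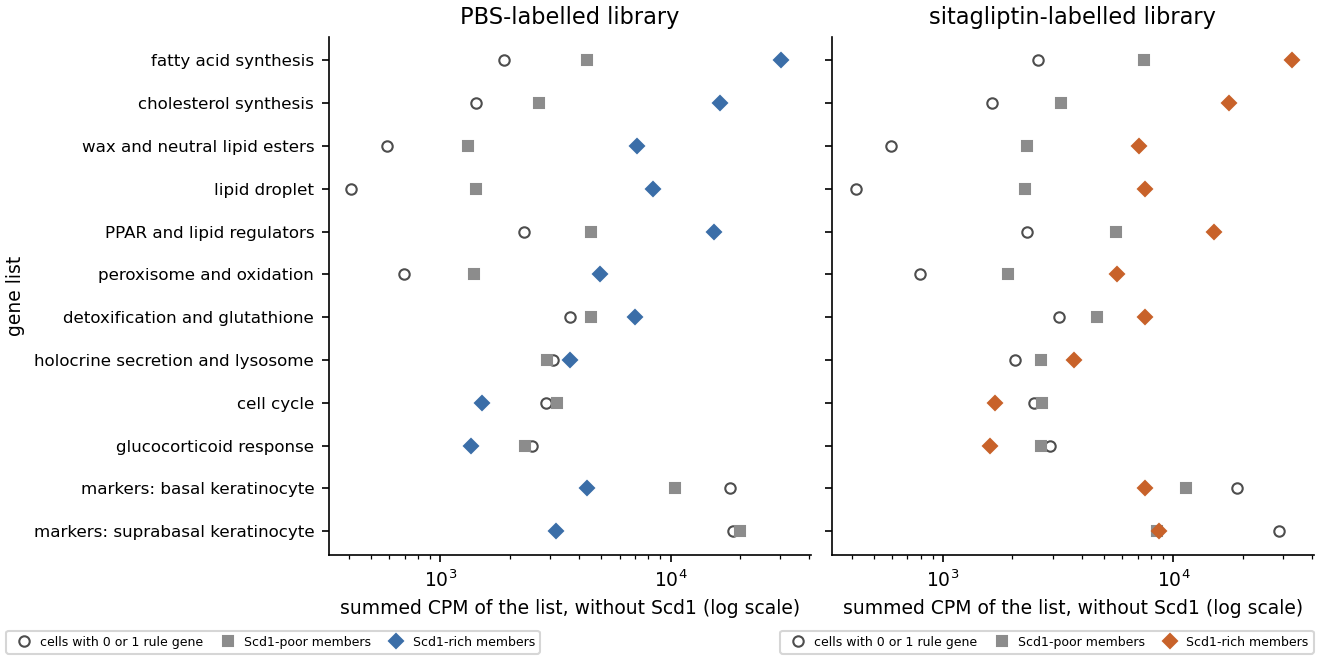
Summed level of 12 gene or marker lists (CPM without Scd1, log scale) in Scd1-rich sebocytes, Scd1-poor sebocytes and cells with 0 or 1 rule gene, 1 panel per library. Poor cells lie between the other groups for the 6 lipid lists at the top, and suprabasal markers lie apart for rich and poor cells under the PBS label and close together under the sitagliptin label.

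A few genes were shared by rich and poor sebocytes at like levels and were low elsewhere; their limits were chosen after the values were seen. Akr1c18, a reductase that inactivates progesterone, was at 958 CPM in rich and 959 CPM in poor PBS-labelled cells, and at 964 and 1330 CPM in the other library. Cells with 0 or 1 rule gene had 21.6 and 34.1 CPM of Akr1c18. Oxtr, the oxytocin receptor, was at 42.6 and 52.6 CPM, and at 44.8 and 53.5 CPM, against 1.68 and 1.71 CPM. Akr1c19, Lcn2, Rnase2b and Serpinb6e met the same limits. Akr1c18 and Oxtr did not differ by 2-fold between rich and poor cells in either library, which the limits fixed in part.

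Sebocytes with the most keratin had less Scd1, Far2, Mgst1 and Fabp5 than those with the least in both libraries. Cells were ranked by the share of UMIs in Krt5, Krt14, Krt15 and Krt17, the keratins of basal and follicular cells, and cut into 3 equal ranges, which are ranges and not cell types. From the lowest to the highest range, Scd1 went from 10276 to 1613 CPM (22 cells each) and from 12340 to 4482 CPM (60 and 59 cells). In the middle range it was at 7432 and 5177 CPM, so most of the fall under the sitagliptin label came before the middle. From the middle to the high range of that library Far2 went up from 806 to 987 CPM, and Fabp5 from 4609 to 5067 CPM. Krt10, which did not set the ranges, was at 1008, 781 and 11817 CPM from the low to the high range under the PBS label. Under the other label it was at 1586, 4817 and 3826 CPM. Krt10 was thus higher at the high than at the low end, but did not rise at each step in either library. The genes most raised at the high end, by the smaller ratio of the 2 libraries, were Cst6, Ppp1r14c, Fcgbp, Aqp3, Defb6, H2-Q7, Stfa3 and Krt15, the last of which also set the ranges. Cst6, a cystatin of the upper follicle, went from 61.6 to 1643 CPM and from 296 to 3831 CPM. Aqp3, the glycerol channel of keratinocytes, went from 6.48 to 140 CPM and from 43.0 to 300 CPM. At the low end the leading genes were Gm5678, Nrg4, Cd36, Ermp1, Lpl, Chchd10, Clstn3 and Slc16a1. Cd36, a fatty acid transporter, was at 162 CPM at the low and 12.04 CPM at the high end, and at 140 and 20.7 CPM in the other library. Lpl, the lipase that frees fatty acids from lipoproteins, was at 775 and 122 CPM, and at 576 and 129 CPM. In the sitagliptin-labelled library the median UMIs were 6958 in the low and 2204 in the high range, and in the PBS-labelled library 10980 and 25850, so depth ran in opposite directions along the ranges of the 2 libraries.

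By library, strict sebocytes made up 1.11% (0.862% to 1.41%) of retained cells under the PBS label and 0.968% (0.832% to 1.12%) under the sitagliptin label. The ratio was 0.87 (0.653 to 1.17), an interval that holds 1. Within ranges of depth the shares lay otherwise. Among cells of 1000 to 3000 UMIs the shares were 0.102% (1 of 977) and 0.657% (76 of 11562). Among those of 3000 to 10000 UMIs they were 0.660% (20 of 3030) and 1.64% (77 of 4702), and from 10000 UMIs 2.34% (45 of 1925) and 1.18% (25 of 2116). The PBS-labelled share was higher in each deeper range, while the sitagliptin-labelled share was highest in the middle one. The sitagliptin-labelled library had the higher share in the lower ranges and the lower share in the deepest. With each cell thinned to 1000 UMIs, 15 (0.253%) and 44 (0.239%) cells met the rule. Scd1-rich sebocytes were 0.472% and 0.462% of retained cells, a ratio of 0.98 (0.633 to 1.56). The ratio of all sebocytes was 0.578 (0.402 to 0.841) at 5 rule genes, and 0.398 (0.266 to 0.598) when cells with 0.2% or more Krt1 and Krt10 were left out, an alternative added after seeing the data. It was 0.651 at 5% mitochondrial UMIs and 1.295 without likely doublets. The doublet filter removed different cells in each library, as given below. No difference in sebocyte share that holds across these settings was found.

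Levels of the sebocyte genes by library depended on which members were counted. Scd1 was 1.49-fold (1.44 to 1.54) higher in the sitagliptin-labelled sebocytes, Far2 1.45-fold, Mgst1 1.43-fold, Soat1 1.47-fold and Cidea 1.60-fold. In Scd1-rich sebocytes alone, where Scd1 itself chose the cells, the ratios were 1.03, 0.959, 1.09, 1.01 and 1.01. Elovl3 went from 1.38 to 0.830. Far2, Soat1, Cidea and Elovl3 are rule genes, so their ratios are descriptions of genes that chose the cells. Each rule gene detected takes at least 1 UMI, which is a larger share of a cell in the shallower library. The part of this in their ratios was not tested. The higher pooled levels were thus not met among the rich cells, which gave 33.6% of the sebocytes' UMIs under the PBS label and 49.3% under the sitagliptin label. Without likely doublets the ratios lay below 1 for Scd1 (0.887), Far2 (0.926), Mgst1 (0.946), Soat1 (0.870) and Elovl3 (0.898), and Cidea was at 1.08. Fa2h was then at 0.869 and Tmem45b at 0.848, the reverse of their pooled 1.68 and 1.63. The doublet filter removed different cells in each library. At least 2 myeloid markers were held by 26 of 66 PBS-labelled members and by no sitagliptin-labelled one. Its depth limit followed the median member, at 13048 and 3282.5 UMIs. It removed all 25 sitagliptin-labelled members from 10000 UMIs upward, 11 of them Scd1-rich. How far this set the ratios without likely doublets was not tested. Of the 18 leading genes with a pooled ratio above 1, 10 were below 1 without likely doublets and 7 in the rich cells. Single cells weighed on these sums: 1 of 66 cells gave 14.3% of the PBS-labelled UMIs of Scd1. Cyp2g1, a cytochrome P450, was at 264 and 669 CPM, a ratio of 2.54 (2.21 to 2.92), and stayed at 1.79 in rich cells, though 1 cell gave 29.2% of its PBS-labelled UMIs. Serpina3j, a serine protease inhibitor, was at 288 and 677 CPM, a ratio of 2.35 that was 1.51 in rich cells. Elovl6 was at a ratio of 1.99 over all sebocytes and of 1.42 in rich cells. Among the 19 leading genes and the elongases, these 3 had ratios of at least 1.4 in both views. Without likely doublets Cyp2g1 was at 1.45 and Serpina3j at 1.49. At 5% mitochondrial UMIs, which left 17 PBS-labelled sebocytes of which 2 were Scd1-rich, Scd1 was at 7.47.

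A gene was tested where it reached 50 CPM in a library and 20 UMIs over both. Of 3427 such genes, 34 (0.992%) had a level 2-fold or more higher in the sitagliptin-labelled sebocytes, and 59 (1.72%) had one 2-fold or more lower, 93 (2.71%) together. In Scd1-rich cells it was 122 (3.49%) and 79 (2.26%) of 3495, at fewer UMIs per library. The rich cells are a part of the same sebocytes: of the 34 higher genes, 33 were higher there too and 24 at least 1.5-fold, beside 49.3% and 10.5% of all tested genes. The counts moved by over 1.5 times with the processing: the higher genes numbered 13 at 3 rule genes and 611 at 5% mitochondrial UMIs, which left 17 PBS-labelled sebocytes.

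Of the 12 genes named as higher, 7 had lower levels in sebocytes than in cells with 0 or 1 rule gene in both libraries. Cxcl14, a chemokine of skin, was at 51.0 and 174 CPM, a ratio of 3.41 (2.51 to 4.68), against 271 and 448 CPM in cells with 0 or 1 rule gene. Ptn, the growth factor pleiotrophin, was at 51.0 and 178 CPM, a ratio of 3.49 (2.57 to 4.79), against 206 and 391 CPM. Zbtb16, a transcription factor induced by glucocorticoids, was at 25.05 and 87.4 CPM, a ratio of 3.49 (2.26 to 5.55). Cxcl14, Ptn and Zbtb16 were higher in the sitagliptin-labelled library in other keratinocytes as well: their ratios in upper follicle cells were 1.58, 1.48 and 1.77, and in basal cells 1.73, 2.18 and 2.46. Besides Cyp2g1 and Serpina3j, the 12 also held Rflnb (4.09), Hopx (2.996), Snai2 (2.98), Bcam (2.45), Cd59a (2.43) and Sfrp1 (2.38). Carns1, the synthase of the dipeptide carnosine, was at 13.4 and 61.3 CPM, a ratio of 4.57 (2.57 to 8.65), from 7 and 14 cells, and had at most 1.20 CPM in upper follicle and basal cells. Thinning to 1000 UMIs brought Carns1 to 1.02 and Bcam to 0.927. At 5% mitochondrial UMIs Cxcl14 was at 0.998, Ptn at 1.01 and Hopx at 0.806. Of the 34 higher genes, 14 were at least 1.5-fold higher in both upper follicle and basal keratinocytes, among them Sfrp1 and Rflnb, beside 73 (2.13%) of all tested genes.

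**Figure D4:**
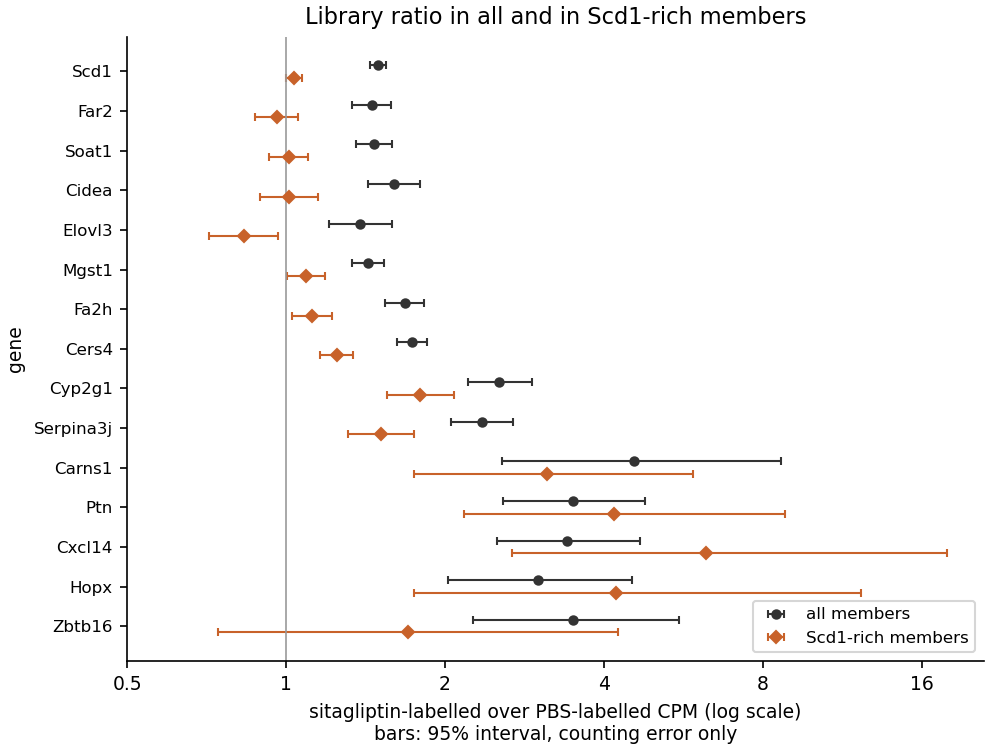
Ratio of the sitagliptin-labelled to the PBS-labelled library (log scale, with 95% counting intervals) for sebocyte markers, other leading genes and some of the genes named as higher, over all strict sebocytes and over Scd1-rich ones. Scd1 moves from 1.49 to 1.03 between the views, and Cyp2g1 from 2.54 to 1.79. Far2, Soat1, Cidea and Elovl3 are rule genes, which chose the cells.

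The lower genes were led by macrophage transcripts. C1qa, C1qb and C1qc, the chains of complement C1q, were at 208, 174 and 102 CPM in PBS-labelled sebocytes and at 0 in the other library, at least 69.1-fold, 57.9-fold and 33.8-fold lower against a floor of 3 UMIs over the sebocytes. The same held for Ctss (at least 22.8-fold), Folr2 (16.9-fold), Pf4 (39.8-fold), Wfdc17 (23.7-fold) and Slpi (23.4-fold). In retained myeloid cells of the PBS-labelled library C1qa was at 1523 CPM, and these were 1433 of 5932 cells against 68 of 18380. In sebocytes, 1 cell gave 52.8% of the C1qa UMIs. Slpi, a protease inhibitor of epithelia, was not a macrophage transcript here, with 1.84 CPM in myeloid cells, and 1 of the 8 cells that held it gave 55.7% of its UMIs. Tyrobp, Fcer1g, Dab2 and Ifi27l2a completed the 12 named. Of the 59 lower genes, 29 were at least 2 times higher in myeloid cells than in sebocytes of the PBS-labelled library, beside 163 (4.76%) of all tested genes. Without likely doublets, 37 and 149 sebocytes were left and Fcer1g had 1 and 3 UMIs, a ratio of 2.56 (0.206 to 134.6) in place of 0.038. The part of free RNA or of attached macrophages in these values was not tested.

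Krtdap, Krt77 and Lor, which keratinocytes express as they differentiate, were among the other lower genes. Krtdap was at 4129 and 1779 CPM, a ratio of 0.43, Krt77 at 4855 and 2155 CPM, and Lor, encoding loricrin of the cornified envelope, at 208 and 83.4 CPM. These 3 were chosen after their values were seen. The median sebocyte had 0.026% of its UMIs in Krtdap under the PBS label and 0.234% under the sitagliptin label. The highest cell had 2.34% and 1.08%. The lower sum of Krtdap was thus not that of the median cell. In Scd1-rich cells the sums of the 3 genes went the other way, with 271 and 1685 CPM of Krtdap, 404 and 2093 CPM of Krt77, and 21.3 and 83.6 CPM of Lor. Of the 59 lower genes 16 were higher in the rich cells. Krtdap, Krt77 and Lor were higher in the sitagliptin-labelled library in upper follicle cells as well, at ratios of 1.39, 1.70 and 1.84.

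By gene list, medians of the lipid pathways were higher in the pooled sebocytes than in the Scd1-rich ones. A gene counts here at 1.5-fold, a step that 235 (6.86%) of the tested genes passed upward and 177 (5.16%) downward; the median log2 ratio was 0.02, with 1 CPM added. In fatty acid synthesis 8 of 25 genes were higher and 0 lower, with a median of 0.47, and in cholesterol synthesis 10 of 24 higher and 1 lower, with 0.35. In peroxisome and oxidation 6 of 20 were higher and 0 lower, with a median of 0.48. Wax and neutral lipid esters had 4 of 17 and 0 (0.42), and lipid droplets 4 of 12 and 0 (0.45). Of these 5 lists, those of fatty acids, wax esters and lipid droplets include rule genes. Among Scd1-rich cells 9.41% of genes passed the step upward and 10.1% downward, and the medians of these 5 lists were 0.10, 0.10, 0.13, -0.03 and 0.08, beside -0.02 over all genes. The medians were thus nearer 0 among the rich cells, and that of wax and neutral lipid esters changed sign.

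Regulators of lipid genes lay closer to equal. PPAR and lipid regulators had 0 of 21 genes higher and 2 lower, with a median of -0.01. The rule gene Pparg was at 72.5 and 79.4 CPM, a ratio of 1.10 (0.793 to 1.51). Srebf1, the transcription factor of fatty acid synthesis, was at 205 and 154 CPM, a ratio of 0.751 (0.608 to 0.925). Of the other lists, glucocorticoid response had 5 of 14 higher and 0 lower, with a median of 0.31 that was 0.30 in rich cells. Its 5 were Zbtb16, Tsc22d3 (2.25), Ddit4 (2.05), Errfi1 (1.87) and Fkbp5 (1.73), and Fkbp5, a cochaperone of the glucocorticoid receptor, was at ratios of 2.07 and 3.11 in upper follicle and basal cells. Cell cycle genes had 0 of 20 higher and 4 lower (-0.09), and Mki67, a marker of dividing cells, was at 174 and 165 CPM. Sebocyte lineage and differentiation had 6 of 19 higher and 0 lower, with a median of 0.30 and of 0.10 in rich cells; Krt79 was at 1553 and 2495 CPM, a ratio of 1.61 that was 1.07 in rich cells. Steroid and retinoid metabolism had 3 of 11 higher and 1 lower (0.50), and detoxification and glutathione 3 and 4 of 26 (0.24).

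Antimicrobial and immune genes had 3 of 10 higher and 5 lower, with a median of -0.65, and the 5 measured in rich cells had 0.99; Defb6, a defensin, was at 705 and 1576 CPM, and Lcn2, an iron-sequestering lipocalin, at 84.1 and 49.2 CPM. Wound keratinocyte genes had 1 of 10 higher and 7 lower, with a median of -0.99, and 0.67 over the 2 measured in rich cells. Holocrine secretion and lysosome had 0 of 18 higher and 5 lower (-0.12), dissociation 0 of 19 and 2 (-0.13), interferon response 0 of 11 and 3 (-0.07), mitochondrial genes 1 of 13 and 0 (0.13) and ribosomal proteins 0 of 81 and 2 (-0.20). Of the DPP family and its substrates 4 of 14 genes had enough UMIs, with 1 higher and a median of -0.06. Dpp4, which encodes the target of sitagliptin, had under 20 UMIs in the sebocytes and is not compared. The higher gene was Cxcl12, a chemokine that DPP4 cleaves, at 4.47 and 20.1 CPM from 5 and 20 UMIs in sebocytes and at 38.0 and 27.6 CPM in cells with 0 or 1 rule gene.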

How the data were processed

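Single-cell RNA of skin was measured in 1 library per treatment. The authors deposited raw UMI counts of 31053 gene identifiers for each barcode. The submitters' processing notes name Cell Ranger 3.1.0 and mm10; the sources used here do not say how barcodes were called as cells. The PBS-labelled library held 10456 barcodes and the sitagliptin-labelled library 22085. Groups follow the titles.

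Members and gene lists were chosen with earlier results of these data known. Levels are CPM of UMIs summed over members, and their ratios have exact conditional binomial intervals; shares have exact Clopper-Pearson intervals, all at 95% and for counting error only. Precision follows the UMIs: sums rest on 1117975 and 995189 UMIs, so low genes have wide intervals. Myeloid cells held at least 3 of 8 markers, upper follicle cells at least 4 of 7 and basal keratinocytes at least 5 of 6; each had under 4 rule genes. Doublets were kept in the main values. Likely doublets, left out in an alternative, were members over 3 times the median UMIs of their library's members or with at least 2 markers of another cell type. Genes tested reached 50 CPM in a library and 20 UMIs over both, and were counted at 2-fold, or at 1.5-fold in lists. There were 19 lists, and 1 listed symbol was not found; list members with at least 20 UMIs count as measured.

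Named genes were the rule genes and markers, the 20 leading genes, the enzyme families, list members, and up to 12 genes each way with the largest library ratio. The last were at least 1.5-fold apart with an interval that excluded 1. Left out were genes over 10 times higher in myeloid cells, and predicted, dissociation, sex-linked, haemoglobin, ribosomal, mitochondrial and antigen receptor genes. Results on some genes are not reported here. Coordinates are from GENCODE vM21 on mm10, which matched 99.6% of identifiers, and promoters from RefSeq on GRCm38.p6. The level step was tested on simulated data. Python 3.11.15, numpy 2.4.6, scipy 1.17.1, pandas 2.3.3 and matplotlib 3.10.9 were used. Alternatives were other rule, depth and mitochondrial limits, thinning to 1000 UMIs, doublets, totals, weights and filters.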

Additional observations from a re-analysis of the deposited data

How the results depend on the processing

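The share ratio of 0.87 kept within its interval in 7 of 11 alternatives and was 0.578 at 5 rule genes, 0.651 at 5% mitochondrial UMIs, 1.295 without likely doublets and 0.398 under 0.2% Krt1 and Krt10. The 34 higher genes numbered 13 at 3 and 52 at 5 rule genes, 611 at 5% mitochondrial UMIs, 139 without likely doublets, 122 in Scd1-rich cells, 83 under 0.2% Krt1 and Krt10, 164 after thinning, 75 by the mean CPM of cells, 112 at 20 CPM and 204 without a CPM filter. The 59 lower genes numbered 385 at 5% mitochondrial UMIs, 190 at 20 CPM and 320 without a CPM filter. The settings by Scd1, keratins and haemoglobin were chosen after seeing the data. Fewer cells or UMIs enter several of them; otherwise the cause was not tested.

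Of 538 gene ratios under an alternative whose main value was above 1, 54 lay below 1, among them 14 of 35 without likely doublets and 11 of 36 in Scd1-rich cells. Of ratios past 1.5-fold, some turned. At 5% mitochondrial UMIs, Cxcl14 was at 0.998, Hopx at 0.806, Lcn2 at 1.68 and Serpinb6e at 0.229. Without likely doublets, Fcer1g was at 2.56 (1 and 3 UMIs), Fa2h at 0.869, and Tmem45b at 0.848; Scd1 (0.887), Far2 (0.926), Mgst1 (0.946) and Soat1 (0.870), whose main ratios were under 1.5, were below 1 too. After thinning, Bcam was at 0.927 and Tmem45b at 0.90. In Scd1-rich cells Gm13178 was at 0.998 and Awat2 at 0.987. Of the list medians (log2), cholesterol synthesis was at -0.013 without likely doublets and wax and neutral lipid esters at -0.027 in Scd1-rich cells. Antimicrobial genes were at 0.20 at 5% mitochondrial UMIs, 1.35 without likely doublets, 0.99 in Scd1-rich cells, 0.43 under 0.2% Krt1 and Krt10 and 1.60 after thinning. Wound keratinocyte genes were at 0.49 without likely doublets, 0.67 in Scd1-rich cells and 0.22 after thinning. In all, 560 gene ratios under an alternative kept their size and direction, 191 moved and 11 of those past 1.5-fold turned; for list medians it was 255, 36 and 10. No paired analysis was possible because there was 1 library per treatment. Depth limits genes under about 50 CPM.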

Other observations

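Barcodes over the mitochondrial limit also carried sebocyte genes. At any mitochondrial share, 91 PBS-labelled and 245 sitagliptin-labelled barcodes with at least 500 genes and 1000 UMIs held at least 4 rule genes. Between 10% and 20% mitochondrial UMIs there were 16 of 1818 barcodes (0.880%) and 59 of 3243 (1.82%), and above 20% there were 9 of 1433 (0.628%) and 8 of 413 (1.94%). Their median share of Scd1 was 0.287% and 0.659% in the first range and 1.02% and 1.19% in the second, beside 0.841% and 0.489% among members at 5% to 10%. Scd1-rich barcodes at any mitochondrial share numbered 41 and 131, against the 28 and 85 within the limit.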
